A study of Mus musculus with 2 samples.

Results

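The 11388 genes described here were measured on a single 2-colour array that set mouse small intestinal cells carrying tdTomato but no EGFP against cells carrying EGFP but no tdTomato. They are the genes with at least 1 named, non-control probe above background in both channels, out of 16403 genes named on the arrays. Background was the mean of the blank spots plus 2 SD in each channel. The mice carried the alleles Atoh1-crePGR and Lgr5-EGFP-IRES-creERT2 together with Rosa26-tdTomato, and every group, the controls included, had all 3. RU486 was given for 5 days to start recombination, and the small intestinal epithelium was sorted 20 days after it. The tdTomato-only cells (EGFP-ve/tdTomato+ve) were labelled with Cy3 and the EGFP-only cells (EGFP+ve/tdTomato-ve) with Cy5, with no dye swap. The third population, double-positive cells (EGFP+ve/tdTomato+ve), was set against EGFP-only cells on the other of the 2 arrays of the series.

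The genotype limits what each population can stand for. The Cre is fused to a progesterone receptor domain and driven by Atoh1, so tdTomato marks cells that had Atoh1-driven Cre at the time of RU486, and everything descended from them. EGFP is read from the Lgr5 allele, which is known to be active in only some crypts, and the same allele encodes a second, tamoxifen-dependent Cre. Cells of 4 mice were pooled into each population, and the labels call each array 1 of 1 biological replicates. No difference below has a replicate check or a p-value, and the dye and the population cannot be told apart. In sorted bulk RNA, fewer cells of a type and less RNA per cell cannot be told apart either.

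The small intestinal epithelium renews itself from Lgr5 stem cells at the crypt base. Daughter cells that switch on Atoh1, a basic helix-loop-helix transcription factor opposed by Notch signalling, become goblet, Paneth or enteroendocrine cells, while cells with active Notch become absorptive enterocytes. Goblet cells secrete mucus, Paneth cells secrete antimicrobial proteins at the crypt base, and committed secretory cells are known to be able to return to the stem cell state, for instance after injury.

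All ratios below are log2 of tdTomato-only over EGFP-only signal after loess normalization within the array, so a positive value is a higher signal in the tdTomato-only cells. Raw spot intensities are on a different scale in each dye, and the loess shifts them with brightness. They show how far a gene stood above background and not by themselves which population was higher. The background limits were 85.4 for Cy3 and 75.7 for Cy5, and the median probe had an intensity of 108 in Cy3 and 98.2 in Cy5. The number of arrays limits the precision. The same EGFP-only population was hybridised on both arrays, and its level differed between them with an SD of 0.083 log2 over 15640 probes, 4 of which differed by 2-fold or more. That spread is technical and says nothing of animals.

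The labels were compared with marker genes first. Lgr5, the receptor whose allele drives EGFP, had an intensity of 282 in the tdTomato-only cells and 666 in the EGFP-only cells, a log2 ratio of −0.89. Ascl2, the transcription factor of Lgr5 stem cells, read 509 against 1416 and was 2.01-fold lower. Smoc2, a matricellular protein of the same cells, read 373 against 1112, a ratio of −1.16. All 3 were lower without EGFP and above background there. The whole list of Lgr5 stem cell genes was less uniform: of 33 measured, 11 were at least 2-fold lower (1.19% of all genes were) and 3 at least 2-fold higher (6.15% of all genes), with 26 below 0 and a median of −0.78. The 3 higher ones were Ephb3, Msi1 and Sectm1b, at 2.56, 2.06 and 1.19. Secretory markers lay on the other side. Spdef, the transcription factor of goblet and Paneth maturation, read 1806 against 273, a ratio of 3.29. Muc2, the gel-forming mucin of goblet cells, did not follow the other goblet markers: its probe read 206 against 220, both dim, a ratio of 0.16. Axin2, a Wnt target, was above background in the EGFP-only channel alone, but both channels lay close to their limits. It read 83.0 against 79.7, a ratio of −0.21. Most defining markers of endocrine cells lay below 0. The lowest was Neurog3, the endocrine progenitor factor, at −1.02 (256 against 652). Tac1, Cck and Gcg lay near 0, at −0.08, −0.09 and 0.15. The whole list of 32 endocrine genes had a median of −0.10, with 2 at least 2-fold higher and 1 lower. The probes of Atoh1 itself were not analysed here.

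Far more genes were higher in the tdTomato-only cells than lower. At least 2-fold higher were 700 genes, which is 6.15% of those measured. At least 2-fold lower were 136 genes, which is 1.19%, so that 836 genes (7.34%) differed by 2-fold or more either way. The median over all genes was −0.01, with 48.2% of genes above 0 and 51.8% below it. The higher side also reached farther. Among the 700 genes, 139 had a log2 ratio from 2 to 3, 47 from 3 to 4 and 29 of at least 4, whereas of the 136 lower genes 1 went beyond −2. This imbalance depended on the normalization. With median centring in place of loess, 408 genes were at least 2-fold higher and 852 lower, so that 32.4% of the genes past 2-fold were higher in place of 83.7%, and the median of all genes shifted to −0.21. In the authors' deposited table, 1211 genes were at least 2-fold higher (10.6%) and 829 lower (7.28%).

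**Figure D1:**
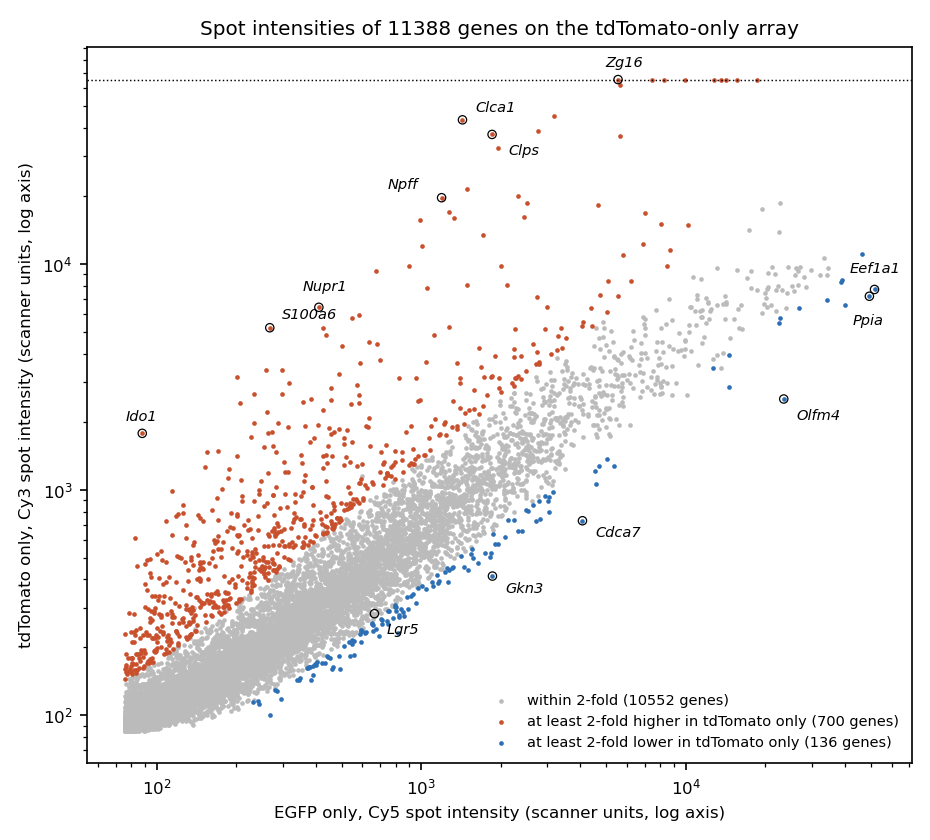
Each point is 1 of 11388 genes (red at least 2-fold higher, blue lower, grey neither), placed by its raw EGFP-only Cy5 intensity (horizontal, log scale) and its raw tdTomato-only Cy3 intensity (vertical, log scale, scanner units), with named genes marked. Clca1 lies far above the cloud at 43457 in Cy3 against 1433 in Cy5, Olfm4 far below it at 2520 against 23475, and the genes at the upper edge sit at the scanner ceiling of 65535.

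Loess and median centring parted most at the bright end of the EGFP-only channel. Of 9907 genes under 1000 in Cy5, 590 were at least 2-fold higher and 73 lower, and their median was −0.01. Of the 42 genes at 20000 or more, 0 were higher and 11 lower, and their median was −0.74 with loess and −1.67 with median centring. These ranges are cut on the EGFP-only signal, the denominator of the ratio, which by itself favours low ratios in the top range. Of the 2847 genes brightest by the mean level of both channels, 315 were at least 2-fold higher and 80 lower. Their median was 0.00 with loess and −0.53 with median centring.

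Secreted proteins, an enzyme of tryptophan breakdown and a calcium-binding protein were among the highest ratios. Clca1, a protease that goblet cells secrete into mucus, had an intensity of 43457 in the tdTomato-only cells and 1433 in the EGFP-only cells. Its log2 ratio was 5.80, or 55.8-fold, the highest of all genes without a saturated probe under the setting of this report. Ido1 was above Clca1 in the deposited ratios (6.72 against 5.29) and with the blank mean subtracted (6.92 against 6.02). In the double-positive cells the Clca1 probe read 3873 against 1499, a ratio of 2.17. The platform names this probe by the former symbol Clca3. A pair of probes that carry the symbol Clca1 on the platform, kept apart here because that symbol has also named another gene of the cluster, had ratios of −0.84 and −1.28.

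Among the 12 highest were also pancreatic-type lipid digestion genes that Paneth cells express. Clps, the cofactor of pancreatic lipase, read 37451 against 1854, a ratio of 5.22. Pnliprp2, a lipase of the same family, read 32451 against 1953, a ratio of 4.93. Ang2 and Ang5, members of the secreted angiogenin ribonucleases, had ratios of 4.72 and 4.67. Sprr2b, a small proline-rich protein, read 15689 against 989, a ratio of 4.76. Ang and Sprr2 genes are near-identical families, so which member each probe read is uncertain.

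The other genes among the 12 highest were of mixed kinds. Ido1, the tryptophan-degrading enzyme, read 1775 against 88.2, just above background in the EGFP-only channel, a ratio of 4.99. S100a6, a calcium-binding protein, read 5213 against 268, a ratio of 4.92. Npff, a neuropeptide precursor, had 4.84, Iglon5, a cell adhesion protein, 4.76, Nupr1, a stress-induced nuclear protein, 4.62, and the noncoding locus C130071C03Rik 4.58.

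A further 9 named genes had a tdTomato-only probe at the scanner ceiling, so the measured ratio is limited by it. They were Zg16, Mptx1, Ang4, Pla2g2a, Spink4, Defa5, Tff3, Defcr3 and Itln1, all secreted goblet or Paneth cell products, with ratios from 2.93 for Itln1 to 4.57 for Zg16. Zg16, a mucus lectin of goblet cells, read 65535 against 5550. Ang4, a bactericidal angiogenin of Paneth cells, read 65535 against 8285, a ratio of 4.03. Defa5 and Defcr3 belong to the near-identical alpha-defensins and are uncertain as single genes.

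On the lower side, stem cell genes stood beside growth genes. Olfm4, a secreted glycoprotein that marks crypt base stem cells, had an intensity of 2520 in the tdTomato-only cells against 23475 in the EGFP-only cells. Its ratio of −2.37 was the lowest of all genes under the setting of this report. With the blank mean subtracted, Slc14a1 was lower, at −2.86 against −2.23 for Olfm4. Cdca7, a chromatin protein high in cycling crypt cells, read 728 against 4072, a ratio of −1.91. Gkn3, a stem cell marker of the mouse crypt, read 414 against 1860, a ratio of −1.71. Stmn1, a microtubule-destabilising protein of dividing cells, read 2837 against 14562, a ratio of −1.54.

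General cell machinery filled much of the rest. Ppia, the abundant prolyl isomerase cyclophilin A, read 7189 against 49467, a ratio of −1.78. Eef1a1, the factor that brings aminoacyl-tRNA to the ribosome, read 7703 against 51725, a ratio of −1.73. Rps3, a protein of the small ribosomal subunit, read 6587 against 39956, a ratio of −1.62. These are among the brightest EGFP-only spots, where the choice of normalization mattered most. Slc25a4, the mitochondrial ADP/ATP carrier, had −1.50, and the transporters Slc14a1, for urea, and Aqp4, for water, had −1.49 and −1.44. Jaml, a junctional adhesion protein, had −1.49, and Cnn3, an actin-binding calponin, −1.41.

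Promoter sequence is shown for the extremes that have a single start in the RefSeq table, as the last 60 bases before the transcription start, 5′ to 3′ on the gene's own strand, GRCm38.p6. Ang4 and Ang5 are printed because both members of this family were high and share an unbroken run of 30 bases, in capitals, beginning 35 bases before the start in Ang4 (chr14:51773591-51773650, minus strand) and 31 bases before it in Ang5 (chr14:43957009-43957068, plus strand).
Ang4: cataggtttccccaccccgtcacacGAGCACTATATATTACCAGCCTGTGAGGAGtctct
Ang5: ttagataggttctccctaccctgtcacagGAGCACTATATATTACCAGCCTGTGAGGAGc
Sprr2b, among the highest genes (chr3:92316645-92316704, plus strand), and Ppia, among the lowest (chr11:6415807-6415866, plus strand), are printed because each holds the letters TATAAA, in capitals, with the first base 29 bases before the start.
Sprr2b: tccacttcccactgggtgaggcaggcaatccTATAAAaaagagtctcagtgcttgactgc
Ppia: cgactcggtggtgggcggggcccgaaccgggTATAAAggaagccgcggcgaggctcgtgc
Olfm4 (chr14:80000242-80000301, plus strand) and Cdca7 (chr2:72476159-72476218, plus strand) are printed as the lowest genes; neither window holds TATAAA on either strand.
Olfm4: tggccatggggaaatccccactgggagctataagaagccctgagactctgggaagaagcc
Cdca7: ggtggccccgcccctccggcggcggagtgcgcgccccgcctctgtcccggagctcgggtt
The letters TATAAA on either strand occurred in this window in 4.20% of all genes of the table. Such a promoter was in the table for 6 of the 12 highest and 9 of the 12 lowest genes, and 1 of each held these letters. The Cdca7 window holds 9 CG dinucleotides. Only 547 of the 700 higher genes (78.1%) had a promoter in the table, so a comparison of promoter letters between the higher and lower genes is void for lack of coverage and is not given.

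The double-positive cells were set against the same EGFP-only population, so ratios on the 2 arrays share that control, and the values are given side by side as a description. Of the 700 genes at least 2-fold higher in the tdTomato-only cells, 699 were measured on both arrays. Their median ratio was 1.48 in the tdTomato-only cells and 1.36 in the double-positive cells. The 136 lower genes had medians of −1.11 and −0.75. Both sets were chosen by passing 2-fold on the tdTomato-only array, which by itself favours smaller medians on the other array. These medians therefore do not show a weaker change in the double-positive cells. Taken as a difference of the 2 ratios, 92 of 11318 genes (0.813%) were at least 2-fold higher in tdTomato-only than in double-positive cells and 32 (0.283%) at least 2-fold lower.

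The widest gap above the double-positive cells belonged to Smarcd3, a chromatin remodelling subunit named after its values were seen. It read 5191 in tdTomato-only cells, with a ratio of 4.24, and 395 in double-positive cells, with a ratio of 0.53. S100a6 followed with 4.92 against 1.22, and Clca1 with 5.80 against 2.17. Some Paneth products had smaller gaps in the other direction. Clps had 5.22 against 5.55, Pnliprp2 4.93 against 5.45, Ang2 4.72 against 5.55 and Ang5 4.67 against 5.50. Among the saturated genes, Zg16 had 4.57 against 2.18 and Tff3, a goblet trefoil peptide, 3.30 against 1.88. Spink4, another goblet product, had 3.43 against 3.52, at the scanner ceiling on both arrays. The goblet products Clca1, Zg16 and Tff3 thus had the lower value in the double-positive cells, and Clps, Pnliprp2, Ang2 and Ang5 the higher one. The higher value there was not particular to Paneth products. Npff had 4.84 against 5.13, Iglon5 4.76 against 5.30, Nupr1 4.62 against 4.90 and C130071C03Rik 4.58 against 5.01. Spink4 could not be compared because of the ceiling. Other goblet markers differed: Ccl6 had 4.48 against 4.47. Retnlb, above background here in the tdTomato-only channel alone, had 1.84 against 2.80. By this difference, 12 of 36 goblet list genes were at least 2-fold higher in tdTomato-only cells and 0 lower, with a median of 0.61. Of 11 Paneth list genes, 0 passed 2-fold either way, with a median of −0.30. The other 4 of the 15 measured were left out, being at the scanner ceiling on both arrays. The median is the difference of Mmp7, which read 61789 here and 65535, the ceiling, in the double-positive cells. On the other side of the comparison, Mt2, a metallothionein, had 0.76 in the tdTomato-only cells and 3.07 in the double-positive cells.

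**Figure D2:**
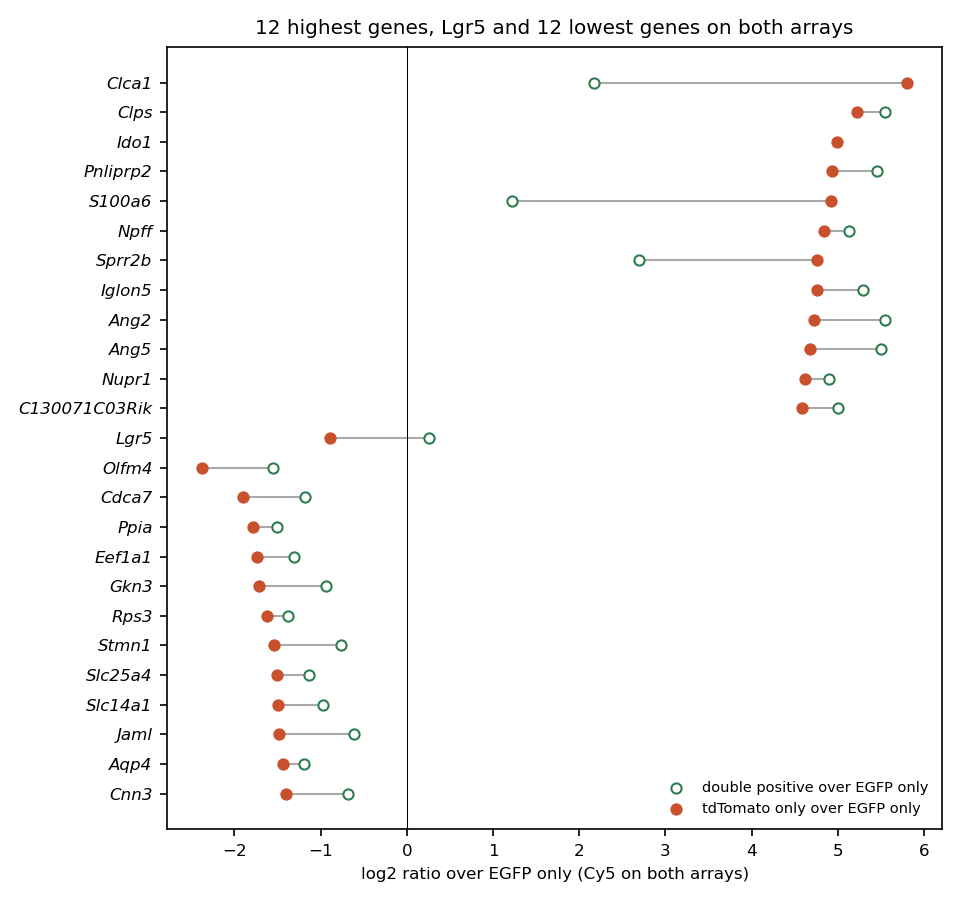
Each line is a gene, the 12 highest, Lgr5 and the 12 lowest, with filled points for the log2 ratio of tdTomato-only over EGFP-only cells and open points for double-positive over EGFP-only cells on the horizontal axis; both ratios share the EGFP-only control. Clca1 and S100a6 have their open points at 2.17 and 1.22, far below the filled ones at 5.80 and 4.92, and Sprr2b has its own below too. The Paneth genes Clps, Pnliprp2, Ang2 and Ang5 have theirs above, and so do Npff, Iglon5, Nupr1 and C130071C03Rik. Ido1 has no open point because its EGFP-only signal was not above background on that array.

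Genes were then described in 51 lists of pathways and cell types, which hold 259 of the 700 higher genes (37% of them), 71 of the 136 lower genes (52.2%) and 1591 of all 11388 measured genes. A list is given by how many of its measured members passed 2-fold and by its median, beside the −0.01 of all genes. The order follows function: division and growth, the secretory route, absorption, and signalling.

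Genes of DNA replication were lower together. Of 54 measured, 24 were at least 2-fold lower and 0 higher, 53 lay below 0, and the median was −0.95, against 1.19% lower among all genes. The 6 subunits of the replicative helicase, Mcm2 to Mcm7, ran from −1.35 to −1.08. Mcm6 read 652 in the tdTomato-only cells against 2401 in the EGFP-only cells, a ratio of −1.35. Cdt1, which loads that helicase, had −1.28, and Prim1, the primase, −1.26. Of 56 genes of the cell cycle and mitosis, 18 were lower and 1 higher, with a median of −0.86; Plk1, a mitotic kinase, had −1.35 and Ccna2, the S phase cyclin, −1.30. The exception was Ccnd3, a D-type cyclin, which read 1620 against 380, a ratio of 2.64. The double-positive medians of both lists were also below 0, at −0.55 and −0.60.

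Growth genes shifted less far. Of 55 cytosolic ribosomal protein genes, 6 were at least 2-fold lower and 0 higher, 49 lay below 0, and the median was −0.62. Rps9, of the small subunit, read 6901 against 34206, a ratio of −1.34. The list is bright, with 25 of its genes at 20000 or more in Cy5. Their median was −0.77, beside −0.74 for all 42 genes of that range. The 42 include these 25, so the 2 medians are not independent and cannot set the list apart from other bright genes. Of those 25 genes 5 were at least 2-fold lower, and of the 42 genes 11 were. The 13 genes from 5000 to 20000 had a median of −0.20, beside −0.16 for all genes of that range, and the 14 genes under 1000 had −0.54, beside −0.01. The list's median was −1.48 with median centring, so its size depended on the normalization. Nucleolar genes had a median of −0.43 over 45 genes, of which 2 were lower: Myc, the growth transcription factor, at −1.08, and Npm1, a ribosome assembly chaperone, at −1.04. Rrp1b, a nucleolar protein, was the 1 higher gene at 1.44.

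Other general machinery stayed within 2-fold. Of 54 splicing factor genes, 37 proteasome genes and 72 respiratory chain genes, 0 passed 2-fold in either direction, with medians of −0.36, −0.16 and −0.07. With median centring the medians of the last 2 were −0.82 and −0.83. Glycolysis and the citric acid cycle had a median of 0.02 over 39 genes, a sign that turned with median centring, quantile normalization and the deposited ratios. The sign of the respiratory chain turned with the blank mean subtracted and with an offset of 10. The 2 higher glycolytic-list genes were Pck1, an enzyme of glucose synthesis, which read 392 against 109, a ratio of 2.28, and Pfkp, a phosphofructokinase, at 1.18.

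The secretory route was higher from the endoplasmic reticulum onward. Of 51 genes of protein folding and the unfolded protein response, 29 were at least 2-fold higher and 0 lower. Their median was 1.12, or 0.58 with median centring. Ern2, the mucosal IRE1 sensor of unfolded proteins, read 5774 against 550, a ratio of 4.05. Agr2, the disulfide isomerase needed to fold mucin, read 36944 against 5635, a ratio of 3.68. Fkbp11, a prolyl isomerase of secretory cells, had 2.33. Of 72 genes of the translocon and the COPI and COPII coats, 24 were higher and 70 lay above 0. Their median was 0.82, or 0.25 with median centring. Tmed6, a cargo receptor between the endoplasmic reticulum and the Golgi, read 2529 against 382, a ratio of 3.31, while Kdelr3, which retrieves resident proteins, had 2.56 and Sec24d, a COPII subunit, 2.28.

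Later steps of secretion held fewer such genes. Of 48 genes of exocytosis, 9 were higher and 0 lower, with a median of 0.38, or 0.18 with median centring. Rep15, a Rab15 effector, read 3378 against 298, a ratio of 4.11. Scin, which severs actin at the membrane, read 1889 against 313, a ratio of 3.15, and had 0.67 in the double-positive cells. Rab3d, a GTPase of secretory granules, read 1202 against 307, a ratio of 2.49, and had 2.36 in the double-positive cells. Of 45 glycosylation genes, 12 were higher and 0 lower, with a median of 0.60, or 0.12 with median centring. Gcnt3, which branches mucin O-glycans, read 736 against 171, a ratio of 2.61. Chst4, a sulfotransferase of mucin glycans, read 585 against 138, a ratio of 2.56, and had 0.40 in the double-positive cells. The near-equal double-positive value of Rab3d and the low ones of Scin and Chst4 show that members of this route differed between the arrays.

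Secreted mucus and granule proteins had a median of 2.19 over 36 genes, with 21 higher and 1 lower. The median was 1.37 with median centring and 1.25 with no limit on dim probes. The lower one was Dmbt1, a mucosal scavenger protein, at 745 against 2805, a ratio of −1.36, and −2.08 in the double-positive cells. Ccl6, a chemokine, had 4.48. The transcription factors of secretory cells had no common direction, with 10 higher, 1 lower and a median of 0.00 over 38 genes whose sign changed with the setting. The higher ones include Spdef and also Klf4, which restrains division and shapes goblet cells, at 3741 against 702, a ratio of 3.05, and Creb3l3, a membrane-bound factor of the endoplasmic reticulum, at 2.44. Gfi1, the repressor that holds Paneth and goblet fate, read 290 against 97.7, a ratio of 1.94.

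**Figure D3:**
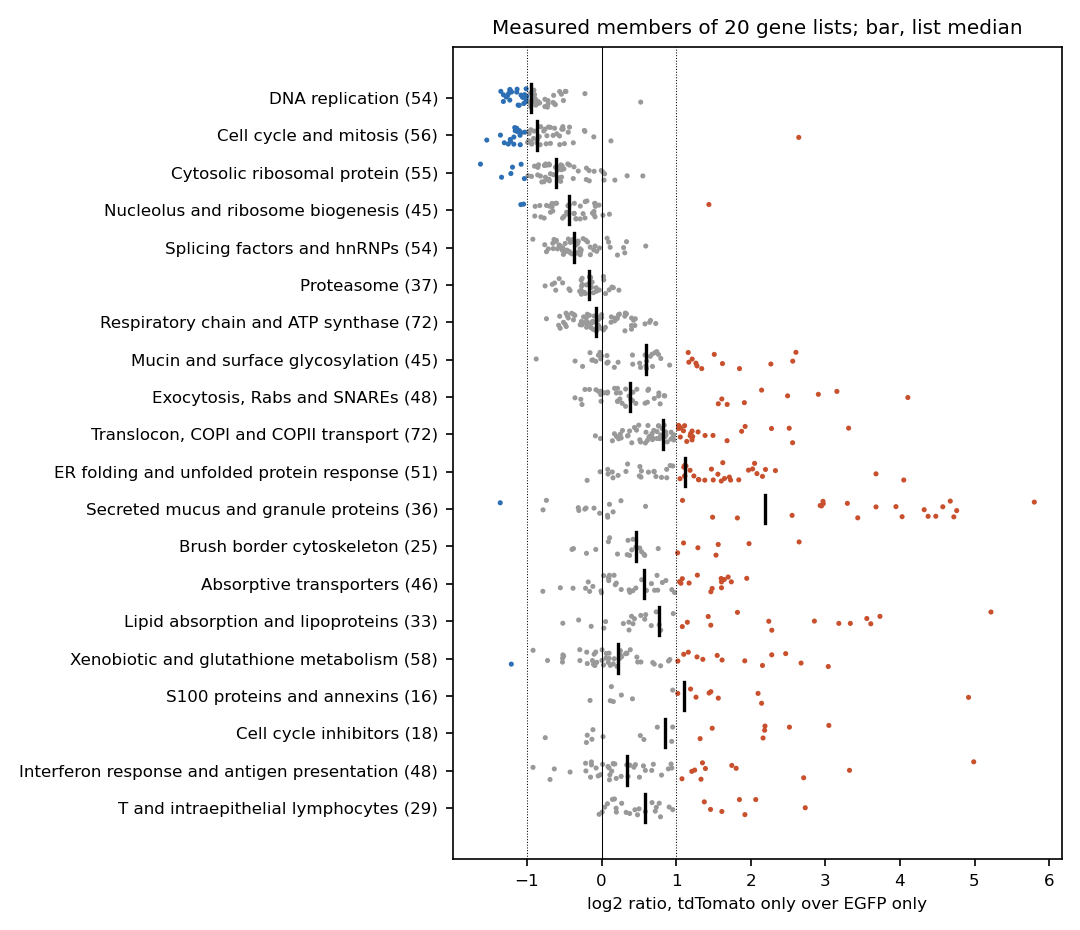
Each row is 1 of 20 gene lists with the number of measured members in parentheses; points are the members' log2 ratios of tdTomato-only over EGFP-only signal (red at least 2-fold higher, blue lower, grey neither) and the bar is the list median. DNA replication lies at a median of −0.95, ribosomal proteins at −0.62, protein folding at 1.12 and granule proteins at 2.19, against −0.01 for all genes.

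Absorptive genes were higher in part. Of 33 genes of lipid absorption and lipoproteins, 14 were at least 2-fold higher and 0 lower. Their median was 0.77, or 0.34 with median centring. Apoa1, the main protein of HDL, read 7806 against 1053, a ratio of 3.61. Apoa4, a chylomicron protein of villus cells, read 4404 against 683, a ratio of 3.34. Fabp1 and Fabp6, which carry fatty acids and bile acids, had 3.56 and 3.18. Of 46 absorptive transporters, 14 were higher and 0 lower, with a median of 0.57, or 0.21 with median centring. Slc46a3, a lysosomal carrier, had 1.95, Slc13a2, for dicarboxylates, 1.74 and Slc6a19, for neutral amino acids, 1.70. Of 25 genes of the brush border skeleton, 7 were higher, with a median of 0.46 that became 0.06 with median centring. Myo15b, an unconventional myosin, read 2422 against 581, a ratio of 2.65, and Vil1, the microvillus actin bundler villin, had 1.10.

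Both villus lists had medians above 0. Of 25 villus tip genes, 11 were higher and 0 lower, with a median of 0.83, or 0.39 with median centring. Enpp3, a nucleotide-cleaving surface enzyme, read 486 against 104, a ratio of 2.70, against 1.11 in the double-positive cells. Krt20, a keratin of mature cells, had 2.12, but its 2 probes disagreed at 3.93 and 0.31. Of 14 villus base genes, 4 were higher and 1 lower, with a median of 0.81 that became 0.19 with median centring. Of 17 ileal and bile acid genes, 6 were higher, with a median of 0.28; Slc51b and Slc51a, the subunits of the bile acid exporter, had 2.27 and 2.11.

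Detoxification was led by glutathione transferases. Of 58 genes of xenobiotic metabolism, 13 were higher and 1 lower. The list median of 0.23 became −0.13 with median centring. Gsta4, which clears lipid peroxidation products, read 2502 against 457, a ratio of 3.04, and had 0.48 in the double-positive cells. Gsta2 read 938 against 210, a ratio of 2.67, and had 1.33 there. Cyp3a44, a cytochrome P450, had 2.47, and Ugt1a6a, a glucuronosyltransferase, was the lower gene at −1.21. The Gsta and Cyp3a genes are near-identical families, so single members are uncertain.

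The S100 and annexin list, which also holds the S100 partner S100pbp, was higher in 9 of 16 genes and lower in 0. Its median was 1.11, against 0.40 in the double-positive cells, and was 0.27 with no limit on dim probes. S100a10, which pairs with Anxa2 at the membrane, read 7297 against 4736, a ratio of 1.44. Anxa2 read 5152 against 2936, a ratio of 1.57. Anxa3 read 389 against 118, a ratio of 2.15, and had 0.02 in the double-positive cells. Inhibitors of the cell cycle had a median of 0.84, with 7 of 18 higher and 0 lower. Cdkn1a, the p21 inhibitor of cyclin-dependent kinases, had 2.19, Gadd45g, a stress-induced growth inhibitor, 2.52, and Mxd1, an antagonist of Myc, 1.48.

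Of 44 genes of apoptosis and p53 targets, 5 were higher and 0 lower, with a median of 0.27 that changed sign with median centring (−0.05). Bid, which carries death receptor signals to mitochondria, read 5938 against 581, a ratio of 4.02. Of 48 genes of interferon response and antigen presentation, 11 were higher and 0 lower, with a median of 0.35. Ciita, the master regulator of MHC class II, read 1785 against 263, a ratio of 3.32. Ifi27l2b, an interferon-induced protein, read 8079 against 2104, a ratio of 2.71. Oas2, an antiviral RNA sensor, read 187 against 84, just above background in the EGFP-only channel, a ratio of 1.39.

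Signalling lists held few genes past 2-fold, to be read beside the 6.15% of all genes that were higher and the 1.19% lower; the higher shares of the Wnt and BMP lists are near the former. In the Wnt list, 3 of 50 genes were higher and 2 lower. Mmp7, a Wnt target and the protease that activates Paneth defensins, read 61789 against 5627, a ratio of 4.47, and Nkd1, a Wnt feedback inhibitor, had 1.34; Myc and Ascl2 were the lower ones. Ephb3, the receptor that positions Paneth cells at the crypt base, read 1427 against 352, a ratio of 2.56. In the Notch list, 0 of 34 genes were higher and 2 lower. Notch1, the receptor, read 173 against 405, a ratio of −1.02, and the other was Olfm4, a Notch target. Dll4, a ligand, had 0.85. In the BMP list, 2 of 28 genes were higher: Bambi, a decoy receptor, at 1191 against 263, a ratio of 2.71, and Bmp7, a ligand, at 1.04. In the EGF list, 3 of 21 were higher, Dusp6 at 1.69, Egf at 1.61 and Errfi1 at 1.46, the ligand Egf beside the feedback inhibitors Dusp6 and Errfi1. Lrig1, a receptor inhibitor of stem cells, had −0.74.

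Ion transport was mixed, with 10 of 41 genes higher and 3 lower, beside 6.15% and 1.19% of all genes. Slc12a2, the basolateral chloride-loading cotransporter of crypt cells, read 1366 against 5056, a ratio of −1.22, and −0.03 in the double-positive cells. Kcnq1, a potassium channel that supports chloride secretion, read 231 against 614, a ratio of −1.10, and −0.27 in the double-positive cells. Among oxidative stress genes, Hmox1, heme oxygenase, read 624 against 170, a ratio of 2.35. Nox1, the epithelial superoxide-generating oxidase, read 115 against 241, a ratio of −1.05, and its activator Noxa1 read 474 against 1647, a ratio of −1.33.

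Genes that neighbour each other on the chromosome were high together in places. With 11340 measured genes placed in order, 9 runs of at least 3 adjacent genes were at least 2-fold higher, 31 genes in all. Runs of lower genes numbered 0. Of all genes, 6.15% were higher and 1.19% lower, and how many runs such shares give by order alone was not tested. The longest of the 9 runs held 6 kallikrein genes, Klk1b7-ps, Klk1b8, Klk1b1, Klk1b11, Klk1b26 and Klk1b27, with ratios from 2.78 to 3.47. They are near-identical proteases and may share signal. Apoa1, Apoc3 and Apoa4, one apolipoprotein cluster, ran from 2.28 to 3.61. Ccl5, Ccl9, Ccl6 and Wfdc18 ran from 1.11 to 4.48. The runs were named after their values were seen.

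Markers of other cell types were measured beside these genes, and their part in the results was not tested. Lymphocyte markers were higher: of 49 on the array, 29 were measured in both channels, 7 of them at least 2-fold higher and 0 lower, with a median of 0.59. These probes are dim, and the median was 1.74 with the blank mean subtracted, 1.69 over the authors' deposited ratios and 0.20 with no limit on dim probes. Their summed intensity was 11511 in the tdTomato-only cells against 6858 in the EGFP-only cells, and 19392 in the double-positive cells. This sum and those below are of raw intensities over all list genes on the array. The blank mean was 78.6 in Cy3 and 68.7 in Cy5, so a list of dim genes sums higher in Cy3 from background alone. The sums do not by themselves show which population was higher. Gzmb, a granule protease of cytotoxic lymphocytes, read 2392 against 541, a ratio of 2.73, and Cd8a, the coreceptor, 333 against 142, a ratio of 1.61. Cd3e, a T cell receptor subunit, was above background in neither channel. Myeloid markers summed to 5379 against 4344, with 2 of 16 higher and a median of 0.12. Much of that gap came from C1qb alone, a complement subunit, at 852 against 126, a ratio of 3.30. Cd68, another myeloid marker, had −0.26, and 10 of the 16 lay above 0 and 6 below. B cell markers summed to 1522 against 1440, with 0 of 7 higher or lower. Fibroblast, muscle and endothelial markers summed to 4637 against 3577, with 1 of 16 higher. Among all genes, 6.15% were higher and 1.19% lower. Pecam1, Cdh5 and Acta2, of endothelium and muscle, were above background in neither channel. Of 11 pancreatic acinar markers, 3 were higher, among them Zg16 and Spink1, which intestinal cells also make, while Cpa1, Prss2 and Ctrb1 were above background in neither channel.

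Beyond the genes measured in both channels, 1044 genes exceeded background in tdTomato-only cells and not in EGFP-only cells, and 201 the reverse. For these the ratio has at most a bound, the brighter level over the lowest level above background on the array, or over the gene's own dim signal where that was higher, after normalization between channels. Of the 1044 genes, 124 had no bound, and the bound reached 2-fold for 14. It did so for 0 of the 201. Rag2, a lymphocyte recombination enzyme, was at least 4.54-fold higher in the tdTomato-only cells (270 against 73.9). Retnlb, a goblet cell antimicrobial, was at least 3.54-fold higher.

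**Figure D4:**
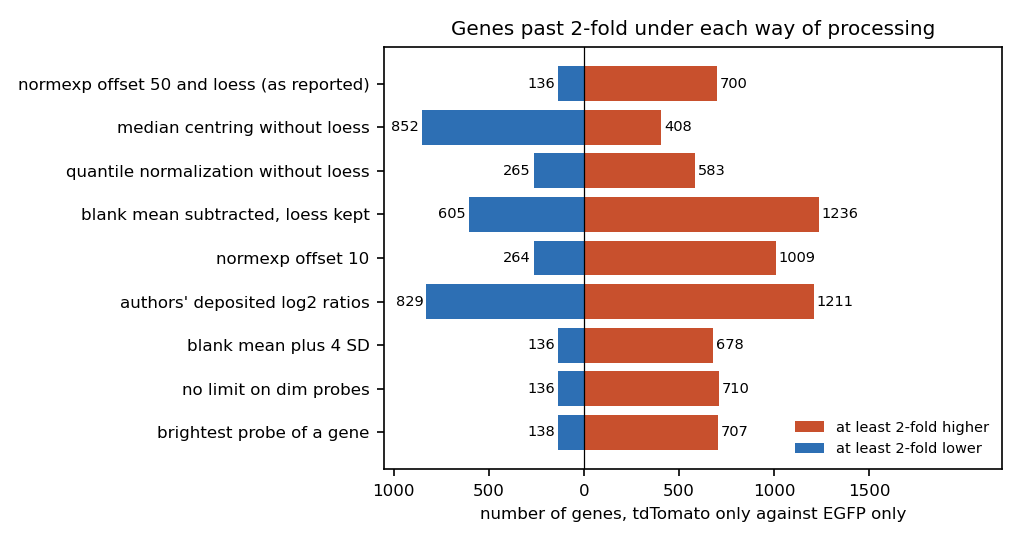
Bars to the right give the number of genes past 2-fold on the higher side in tdTomato-only cells, and bars to the left the number past it on the lower side, under each processing setting. The setting of this report gives 700 higher and 136 lower, median centring gives 408 and 852, and the authors' deposited ratios give 1211 and 829.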

How the data were processed

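The samples were RNA of sorted mouse small intestinal cells, amplified and hybridised to 2-colour Toray arrays, per the labels' protocols. The deposited intensity values are the scanner signals of each spot in Cy3 and Cy5, and the deposited log2 ratios are described per the labels as normalized log2 ratios, with their normalization not given in the sources used here. Here, intensities were corrected by normexp with an offset of 50 and no local background, normalized by loess within each array with control and quality-marked spots given weight 0 (limma 3.58.1, R 4.3.3), and turned as tdTomato only over EGFP only. Probes of a gene were averaged. Of 16631 named probes, 12622 carried a current symbol and 3947 were updated through RefSeq GRCm38.p6 synonyms; 13 platform symbols that have named different genes were kept apart, and the list entries Si and Mln were left out because their synonym is another gene.

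With 1 array per comparison no test was run, and genes are counted past a log2 ratio of 1. Named are Lgr5, the 12 highest and 12 lowest genes without saturation, saturated genes, up to 6 members of each list by absolute ratio, defining markers, and up to 8 genes with the largest bounds. The members and lists were chosen with earlier results of these data known. Alternatives were median centring, quantile normalization, subtracting the blank mean, an offset of 10, a limit of 4 SD, no limit on dim probes, the brightest probe of a gene and the deposited ratios.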

Additional observations from a re-analysis of the deposited data

Results flagged for a closer look

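Signal also appeared in probes that no gene name describes, which the comparisons do not use. Of 6842 such probes, 3931 were above background in both channels, whereas 0 of 96 negative control spots were. Of these 3931 probes, 224 were at least 2-fold higher in the tdTomato-only cells, the highest at a log2 ratio of 5.38. At least 2-fold lower were 38, the lowest at −1.62. Both shares lie near those over the named genes, of which 6.15% were higher and 1.19% lower. The genes of the unnamed probes are not known here.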

How the results depend on the processing

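No paired analysis was possible because each comparison rests on 1 array, which also leaves no replicate to leave out. The count of genes at least 2-fold higher, 700, became 408 with median centring, 1236 with the blank mean subtracted and 1211 with the authors' deposited ratios. The count at least 2-fold lower, 136, became 852 with median centring, 265 with quantile normalization, 605 with the blank mean subtracted, 264 with an offset of 10 and 829 with the deposited ratios; the causes were not tested. Of the genes past 2-fold, the share that was higher was 68.8%, 67.1%, 79.3% and 59.4% with quantile normalization, the blank mean subtracted, an offset of 10 and the deposited ratios. Of 276 named genes, 267 kept their sign with median centring and all 276 did so with each other alternative that measured them all; with the limit of 4 SD, 268 were measured and all kept it. Of 188 named genes past 2-fold, 159 stayed past it with median centring, 180 with the deposited ratios, 181 with quantile normalization and 184 each with the blank mean subtracted and with an offset of 10. Of 6 lists with a median past 2-fold, 3 stayed past it with median centring, 4 with quantile normalization and 5 each with the deposited ratios and with no limit on dim probes. Those that changed sign with median centring include Eno1 (0.67 to −0.03) and Atp5e (0.58 to −0.24). Of 51 lists, 34 kept the sign of their median throughout, and no list with a median beyond 0.30 in size changed it.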

Other observations

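Several lists not described above follow, to be read beside the 6.15% of all genes that were higher and the 1.19% lower. Of 54 lysosome and autophagy genes, 6 were higher and 0 lower, with a median of 0.30 that became −0.15 with median centring; Lgmn, a lysosomal protease, had 2.22. Of 47 keratin, claudin and junction genes, 4 were higher, among them Lgals3, a galectin of mature cells, at 1.96 and Itgb4, the hemidesmosome integrin, at 1.29. Of 18 cholesterol synthesis genes, 1 was higher, Msmo1, a sterol oxidase, at 1.15. Of 44 translation factor genes, 1 was higher, Eif2ak3, the PERK kinase of the unfolded protein response, 2.82-fold, and 1 lower, Eef1a1. Tuft cell genes had 2 of 25 higher and 1 lower, with a median of −0.02, and endocrine genes 2 of 32 higher and 1 lower, with a median of −0.10.

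Among genes in no list, named after their values were seen, Rnase1, a secreted ribonuclease, had 4.11. At the other end, Apex1, a DNA repair endonuclease, had −1.38 and Pbk, a mitotic kinase, −1.32.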
